A study of Mus musculus with 178 samples.

Results

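The Toll-like receptor (TLR) genes are described here in the blood of tumor-bearing mice given an antibody to PD-1, the inhibitory receptor of activated T cells. The members are the rows of the count table that carry 10 listed symbols, Tlr1 to Tlr9 and Tlr13, out of 55450 rows in all, and each symbol was found in 1 row. The rule reads symbols and no measured value. The study followed 45 C57BL/6J mice, aged 6 to 8 weeks, that carried tumors of the head and neck squamous cell carcinoma line 4MOSC1 in the tongue or the buccal mucosa. Blood was drawn on Day 4 after the cells were injected, before treatment, and on Days 9, 17 and 24 on treatment, and polyadenylated RNA of whole blood was sequenced in bulk, giving 178 libraries. Mice were called responders or non-responders from the course of their tumors (RECIST criteria). Responders gave 15 libraries on Days 4, 9 and 24 and 14 on Day 17, and non-responders gave 29 on Day 4 and 30 on each later day. All mice were treated with the antibody (clone RMP1-14), so that no group without treatment or without a tumor enters, and a change after Day 4 cannot be told apart from the effect of tumor growth, repeated bleeding or time.

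TLRs are innate immune receptors that bind conserved molecules of microbes and of damaged cells. Tlr1, Tlr2, Tlr4, Tlr5 and Tlr6 act at the cell surface, whereas Tlr3, Tlr7, Tlr8, Tlr9 and Tlr13 read nucleic acids inside endosomes. Nearly all signal through the adaptor Myd88 to NF-kB and to interferon regulatory factors, and Tlr3 signals through Ticam1 instead. In blood, monocytes and neutrophils are known for Tlr2, Tlr4, Tlr5, Tlr8 and Tlr13, called the myeloid TLRs below, and B cells and plasmacytoid dendritic cells for Tlr7 and Tlr9. The comparison of the days asked how the blood changed on treatment, and the comparison of the groups asked which genes separated mice by outcome.

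Total counts per library ranged from 26058958 to 82208665, of which haemoglobin genes took 68.7% to 88%. The median count of a receptor per library ranged from 17 for Tlr3 and 22 for Tlr5 to 612 for Tlr13 and 774 for Tlr1, so that Tlr3 and Tlr5 are the least precise. Tlr3 was at 0 in 1 library, and each of the other 9 had counts in all 178. All 10 passed the filter on low counts in every comparison. The Day 24 library of non-responder 29 stood apart, with the lowest scaling factor of all, and among the non-responders of that day it was the lowest for Tlr1, Tlr3 and Tlr9 and the highest for Tlr2 and Tlr8. The Day 17 library of non-responder 24 is labelled a responder, while the other libraries of that mouse are labelled non-responder, and it was counted with the non-responders. The ear tags of the mice fall into a series of 4 digits and a series of 3 digits, and 11 of 15 responders but 7 of 30 non-responders have 4 digits, so that values within each series are given beside the comparison of the groups. Labelled as blood, the libraries held the markers of red cells, platelets, B cells, T cells, monocytes and neutrophils, and the eosinophil peroxidase gene Epx was at 0 in most of them.

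Tlr1 and Tlr6, receptors that pair with Tlr2 to bind bacterial lipopeptides, lie side by side on chromosome 5 (Tlr1 at chr5:64924679-64933563 and Tlr6 at chr5:64952031-64960097, both on the minus strand of GRCm38) with 18467 bases between them. Their deposited counts were not whole numbers in 175 of 178 libraries, whereas those of the other 8 receptors were whole in all, as when reads are divided between genes. The longest stretch common to their transcripts spans 229 bases of coding sequence, at chr5:64925537-64925765 in Tlr1 and chr5:64953828-64954056 in Tlr6, and it is shown because a read that falls inside it cannot be assigned to either gene by its sequence:
Tlr1 and Tlr6, shared stretch (GENCODE M21): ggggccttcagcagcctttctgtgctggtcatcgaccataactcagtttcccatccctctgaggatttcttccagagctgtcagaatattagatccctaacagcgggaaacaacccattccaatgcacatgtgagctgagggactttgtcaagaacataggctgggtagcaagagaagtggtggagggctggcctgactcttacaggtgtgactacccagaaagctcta
Of the 2976 windows of 50 bases in the Tlr1 transcript, 15.3% also occur in Tlr6. By the same count, no window of Tlr7 occurs in Tlr8, its neighbour on the X chromosome. Values of Tlr1 and Tlr6 are therefore uncertain to the extent that the authors' counting divided these reads.

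Promoter windows, 250 bases before to 50 bases after the start site, were found in RefSeq (GRCm38.p6) for 8 of the 10 receptors, with 10 windows in all since Tlr1 and Tlr6 have 2 each. Tlr4 and Tlr7 had no entry. The windows of Tlr8, Tlr13 and Tlr2, myeloid receptors that rose on Day 9, and of Tlr9, which fell, are shown so that the letters of receptors that moved in opposite directions can be read side by side. Each is written 5′ to 3′ on the strand of the gene, and capitals mark matches, on either strand, to any of 5 motifs: GAGGAA (core of PU.1, the Ets factor of myeloid and B cells), TTGCNNAA (C/EBP), GAAA followed after 2 bases by GAAA (interferon-stimulated element), GGGA followed after 2 bases by TTCC (NF-kB) and TCCC followed after 2 bases by GGGA (EBF). N stands for any base, and matches to different motifs may overlap.
Tlr8, chrX:167264280-167264579, minus strand: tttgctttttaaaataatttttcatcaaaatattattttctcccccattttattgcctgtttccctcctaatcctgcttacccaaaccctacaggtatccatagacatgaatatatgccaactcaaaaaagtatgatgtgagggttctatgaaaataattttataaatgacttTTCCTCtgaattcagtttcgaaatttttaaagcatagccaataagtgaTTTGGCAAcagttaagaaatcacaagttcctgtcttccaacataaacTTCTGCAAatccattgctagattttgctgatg
Tlr13, chrX:106143025-106143324, plus strand: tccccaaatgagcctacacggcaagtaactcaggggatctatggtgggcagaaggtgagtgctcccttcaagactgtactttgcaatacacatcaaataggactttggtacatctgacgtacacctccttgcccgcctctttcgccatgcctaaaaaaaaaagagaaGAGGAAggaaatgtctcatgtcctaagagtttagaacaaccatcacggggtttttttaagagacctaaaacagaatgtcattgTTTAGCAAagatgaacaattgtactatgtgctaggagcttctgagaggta
Tlr2, chr3:83841559-83841858, minus strand: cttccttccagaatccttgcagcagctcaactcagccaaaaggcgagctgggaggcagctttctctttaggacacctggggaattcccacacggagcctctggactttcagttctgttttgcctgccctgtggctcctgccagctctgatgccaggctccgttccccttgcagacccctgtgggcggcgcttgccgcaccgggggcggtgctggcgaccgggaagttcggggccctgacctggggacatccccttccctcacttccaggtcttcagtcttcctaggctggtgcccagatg
Tlr9, chr9:106222348-106222647, plus strand: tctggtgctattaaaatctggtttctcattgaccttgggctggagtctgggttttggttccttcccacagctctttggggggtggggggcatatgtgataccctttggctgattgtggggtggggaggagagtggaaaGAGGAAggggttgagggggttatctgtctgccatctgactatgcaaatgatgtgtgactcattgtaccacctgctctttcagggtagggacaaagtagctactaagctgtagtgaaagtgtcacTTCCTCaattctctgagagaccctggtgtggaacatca
Tlr8 and Tlr13 each held both GAGGAA and TTGCNNAA, Tlr9 held 2 matches to GAGGAA and none to TTGCNNAA, and Tlr2 held none of the 5 motifs. Over the 10 receptor windows, GAGGAA occurred in 4 and TTGCNNAA in 4, beside 28.3% and 10.8% of all 32851 windows of that length. The interferon, NF-kB and EBF motifs occurred in 1, 1 and 0 of the 10, beside 3.44%, 1.47% and 0.904% of all windows. A match is a run of letters and not a binding site, and no match says only that those letters are not in the window.

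To compare receptors with each other, levels were read per transcript length as deposited TPM, in which haemoglobin is part of the total. Over all 178 libraries, Tlr1 was the highest with a median of 2.48 TPM, followed by Tlr13 (1.28), Tlr7 (1.18), Tlr9 (1.07), Tlr8 (0.56), Tlr6 (0.45), Tlr2 (0.435) and Tlr4 (0.33). Tlr5 and Tlr3 were lowest at 0.06 and 0.05 TPM. Tlr1 stood above Tlr13 in 167 libraries, Tlr9 above Tlr8 in 167, Tlr2 above Tlr4 in 160 and Tlr4 above Tlr5 in 178 of 178. The order turned with the day as well: in non-responders Tlr9 (median 1.73 TPM) lay above Tlr13 (1.37) and Tlr7 (1.31) on Day 4, and below them on Day 9 (1.48 beside 2.35 and 1.91). In responders the medians of Tlr9, Tlr13 and Tlr7 were close on Day 4 (0.85, 0.81 and 0.86 TPM). On Day 9 Tlr9 was the lowest of these in responders (0.78 beside 1.37 and 0.93). The order of the other neighbours was not a firm one over all libraries: Tlr13 was above Tlr7 in 113 libraries, Tlr7 above Tlr9 in 115, Tlr8 above Tlr6 in 114, Tlr6 above Tlr2 in 90 and Tlr5 above Tlr3 in 105. The cell surface receptors were thus spread over the order, Tlr1 at its top and Tlr6, Tlr2, Tlr4 and Tlr5 in its lower part, and of the endosomal receptors Tlr13, Tlr7 and Tlr9 followed Tlr1 while Tlr3 was lowest. Of the TLR genes outside the list, Tlr12 had 9.0 to 242.0 counts per library and Tlr11 at most 24.0, with none in 10.0 libraries.

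All levels from here on are log2 CPM, the logarithm of the count relative to the library's total, scaled by the trimmed mean of M values (TMM), and groups are given by their lowest, median and highest library. Fold changes are on the log2 scale with the standard error of the edgeR fit, and a receptor counts as changed at an adjusted p of at most 0.05 over all genes tested. In bulk blood, fewer cells of a type and less RNA per cell cannot be told apart.

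From Day 4 to Day 9, TLR expression turned toward the myeloid TLRs in both groups. In non-responders 8 of the 10 receptors rose and 1 fell, while 23.3% of the 13009 genes tested rose and 27.5% fell. In responders 7 rose and 1 fell, against 13.5% and 14.2% of 12561 genes. Tlr8, Tlr2, Tlr5, Tlr13, Tlr4, Tlr6 and Tlr7 rose in both groups and Tlr3 in non-responders, and Tlr9 was the receptor that fell in both. The median of the 10 fold changes was 0.69 in non-responders and 0.48 in responders, beside -0.01 and 0.01 over all genes. With limma on log2(TPM + 1), a scale that counts haemoglobin in its total and that understates changes of low genes, 5 receptors were called in non-responders and none in responders, beside 20.3% and 1.7% of all genes. In responders the TPM values had no reversed direction among the 8 receptors called here.

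**Figure D1:**
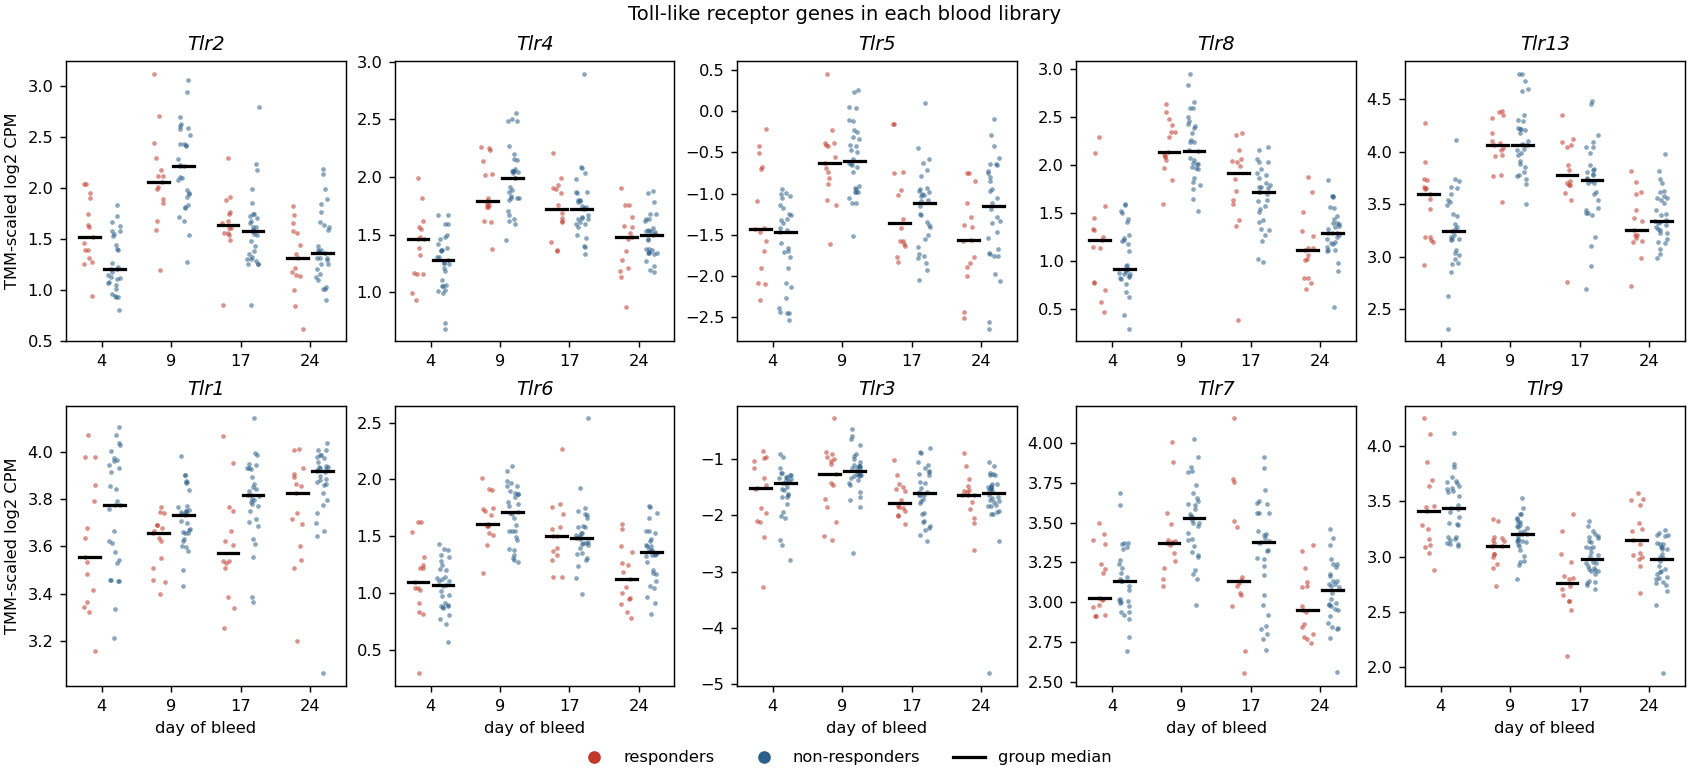
Levels of the 10 receptors in each of the 178 libraries (points; y axis, TMM-scaled log2 CPM) by day of bleed (x axis) for responders (red) and non-responders (blue), with black bars at the group medians. The 5 myeloid TLRs of the upper row have their highest medians on Day 9, whereas the medians of Tlr9, at the lower right, are highest on Day 4.

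Among the surface receptors, Tlr2, which binds bacterial lipoproteins, was at 0.80, 1.20 and 1.83 log2 CPM in non-responders on Day 4 and at 1.27, 2.21 and 3.06 on Day 9. It rose in 29 of 29 non-responders bled on both days, by 0.97 ± 0.09 (edgeR adjusted p = 1.1e-16). In responders it went from 0.94, 1.52 and 2.03 to 1.19, 2.05 and 3.12, higher in 12 of 15 mice, by 0.58 ± 0.13 (edgeR adjusted p = 5.7e-04). The ranges of both days overlapped in each group. Tlr4, the receptor for lipopolysaccharide, was at 0.68, 1.28 and 1.67 on Day 4 and 1.45, 1.99 and 2.56 on Day 9 in non-responders, a rise of 0.73 ± 0.07 (edgeR adjusted p = 4.0e-17). Responders moved from 0.93, 1.46 and 1.99 to 1.38, 1.79 and 2.26, by 0.46 ± 0.10 (edgeR adjusted p = 2.9e-04). Tlr4 was higher on Day 9 in 29 of 29 non-responders and in 13 of 15 responders. Tlr5, which binds flagellin, had a median of -1.46 on Day 4 and -0.60 on Day 9 in non-responders, and its rise of 1.11 ± 0.14 (edgeR adjusted p = 2.0e-11) is among the steepest but rests on a median of 22 counts per library on Day 4. In responders its medians were -1.43 and -0.62, a rise of 0.63 ± 0.22 (edgeR adjusted p = 0.025) seen in 11 of 15 mice.

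Tlr1 and Tlr6, although neighbours, differed in their course. Tlr6 was higher on Day 9 in 29 of 29 non-responders, by 0.65 ± 0.06 (edgeR adjusted p = 9.9e-16), and in 13 of 15 responders, by 0.50 ± 0.10 (edgeR adjusted p = 1.7e-04). Tlr1 stayed between medians of 3.56 and 3.92 over all 8 groups, and its Day 9 fold changes were -0.04 ± 0.04 (edgeR adjusted p = 0.43) and -0.01 ± 0.08 (edgeR adjusted p = 0.94) in non-responders and responders. The SD of Tlr1 between mice was 0.25 on Day 4 (n = 29) and 0.12 on Day 9 (n = 30) in non-responders, and 0.28 and 0.12 in responders (n = 15 on both days), a difference in spread that was not tested.

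Tlr8, an endosomal receptor of the Tlr7 family on the X chromosome, had the highest Day 9 fold change of the 10 in both groups, although in non-responders Tlr5 lay within its error. In responders the 95% intervals of Tlr8 (0.61 to 1.20) and Tlr5 (0.20 to 1.05) overlapped, so that the order is not firm there either. Its libraries were at 0.30, 0.92 and 1.59 log2 CPM on Day 4 and 1.52, 2.15 and 2.95 on Day 9 in non-responders, and 29 of 29 mice rose, by 1.17 ± 0.08 (edgeR adjusted p = 4.0e-24) or 2.26-fold. Responders went from 0.47, 1.22 and 2.29 to 1.60, 2.13 and 2.63, with 14 of 15 mice higher, by 0.91 ± 0.15 (edgeR adjusted p = 7.6e-06) or 1.88-fold. In both groups the ranges overlapped, but the lowest library of Day 9 was above the Day 4 median. Tlr13, which reads bacterial ribosomal RNA, moved in the same direction, from 2.32, 3.24 and 4.12 to 3.50, 4.07 and 4.74 in non-responders, a rise of 0.84 ± 0.09 (edgeR adjusted p = 6.5e-15). Its rise in responders, from 2.92, 3.60 and 4.27 to 3.52, 4.06 and 4.39, was 0.53 ± 0.11 (edgeR adjusted p = 2.7e-04). Its ranges overlapped between the days in both groups, with the lowest libraries on Day 4. Tlr3, the receptor for double-stranded RNA, was near the limit of the depth, with a median of 24.5 counts in non-responders on Day 9. Its fold change was 0.34 ± 0.11 (edgeR adjusted p = 0.0065) in non-responders and 0.31 ± 0.20 (edgeR adjusted p = 0.25) in responders.

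Tlr7 and Tlr9, both of which B cells are known to express, parted. Tlr7, the receptor for single-stranded RNA, was at 2.69, 3.13 and 3.68 log2 CPM on Day 4 and 2.98, 3.53 and 4.02 on Day 9 in non-responders, and rose by 0.39 ± 0.07 (edgeR adjusted p = 3.2e-07), in 26 of 29 mice. In responders it was at 2.91, 3.03 and 3.50 and 3.10, 3.37 and 4.01, a rise of 0.30 ± 0.11 (edgeR adjusted p = 0.029), in 13 of 15 mice. Tlr9, which binds unmethylated CpG DNA, fell instead, from 3.09, 3.44 and 4.12 to 2.79, 3.20 and 3.53 in non-responders, lower in 21 of 29 mice, a fold change of -0.28 ± 0.05 (edgeR adjusted p = 5.8e-06). Responders went from 2.87, 3.41 and 4.25 to 2.74, 3.10 and 3.34, lower in 13 of 15 mice, a fold change of -0.39 ± 0.11 (edgeR adjusted p = 0.0048). The highest Tlr9 libraries of both groups were thus on Day 4, while the ranges of the days overlapped. On Day 4 the median of Tlr7 minus Tlr9 in a library was -0.26 in non-responders and -0.28 in responders, and on Day 9 it was 0.32 and 0.27. This difference rose in 28 of 29 non-responders and 13 of 15 responders. Its sign does not rank Tlr7 and Tlr9, since log2 CPM is not scaled by transcript length.

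**Figure D2:**
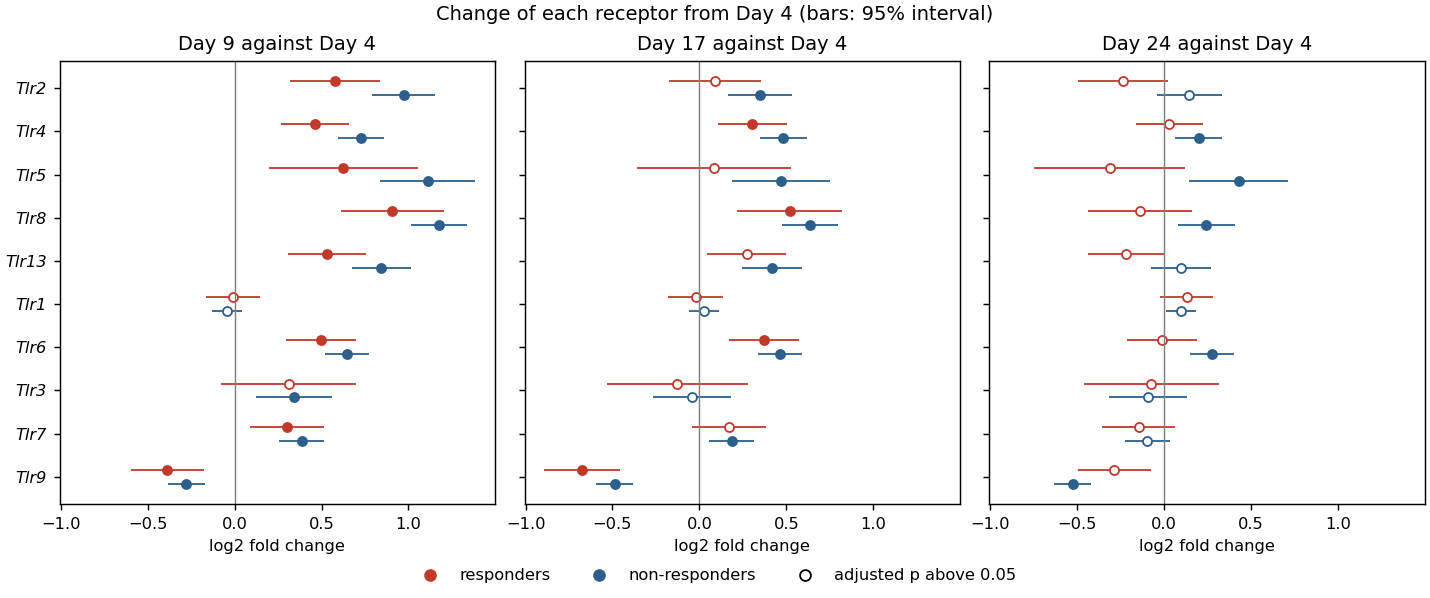
Log2 fold change of each receptor (x axis) from Day 4 to Days 9, 17 and 24 in responders (red) and non-responders (blue), from the edgeR fit of each group. Bars are 95% intervals from the standard error worked back from the F statistic. Filled points have an adjusted p of at most 0.05 and open points a higher one. The 3 days share their Day 4 libraries. Tlr9 lies left of 0 on every day, and Tlr8 has the highest point of Day 9.

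On Day 17 Tlr8, Tlr6 and Tlr4 were above and Tlr9 was below the Day 4 level in both groups, and Day 17 was not tested against Day 9. In non-responders 7 receptors were higher than on Day 4 and Tlr9 was lower, while 21.9% of all genes were higher and 24.2% lower. Among the 7 were Tlr8 by 0.64 ± 0.08 (edgeR adjusted p = 2.0e-10), Tlr4 by 0.48 ± 0.07 (edgeR adjusted p = 4.7e-09), Tlr6 by 0.46 ± 0.07 (edgeR adjusted p = 3.1e-09) and Tlr7 by 0.19 ± 0.07 (edgeR adjusted p = 0.016). Responders had 3 higher receptors, Tlr8 by 0.52 ± 0.15 (edgeR adjusted p = 0.0092), Tlr6 by 0.37 ± 0.10 (edgeR adjusted p = 0.006) and Tlr4 by 0.30 ± 0.10 (edgeR adjusted p = 0.021), and 1 lower, against 12.2% and 13.4% of all genes. Tlr13 was 0.27 ± 0.12 (edgeR adjusted p = 0.075) in responders, and with the mouse as a block its edgeR adjusted p was 0.049. Tlr9 was at 2.10, 2.76 and 3.39 log2 CPM in responders and 2.71, 2.98 and 3.32 in non-responders. It was below its Day 4 level in 14 of 14 responders, with a fold change of -0.68 ± 0.11 (edgeR adjusted p = 1.3e-05), and in 27 of 29 non-responders, with -0.49 ± 0.05 (edgeR adjusted p = 8.7e-13). On log2(TPM + 1) the non-responder values of Tlr2, Tlr5, Tlr6, Tlr7 and Tlr13, which rose on the count scale, lay below 0 on this day, where the median of all genes moved by -0.14.

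On Day 24 responders had no receptor that passed edgeR's test against Day 4, where 17.4% of all genes did, and 1 receptor, Tlr9, had an unadjusted p under 0.05, beside 32.3% of all genes. Without the Day 4 libraries of responders 2 and 8, chosen after seeing the data, no receptor passed either, where 7.76% of all genes did. Tlr8 was at 0.71, 1.12 and 1.87 log2 CPM in responders that day, a fold change of -0.14 ± 0.15 (edgeR adjusted p = 0.56). Tlr9 had -0.29 ± 0.11 (edgeR adjusted p = 0.053) in responders, and with the mouse as a block it was called, at -0.26 (edgeR adjusted p = 0.025), as it was by DESeq2. In non-responders Tlr5 (0.43 ± 0.14), Tlr6 (0.27 ± 0.07), Tlr8 (0.24 ± 0.08) and Tlr4 (0.20 ± 0.07) remained above Day 4 with edgeR adjusted p between 3.2e-04 and 0.014, and Tlr9 remained below, at 1.94, 2.98 and 3.24 log2 CPM, with -0.53 ± 0.05 (edgeR adjusted p = 1.5e-13). By the same edgeR test 23.8% of all genes were higher and 24.8% lower. Within the 4-digit ear tags 1 receptor, Tlr9, was called, and Tlr5 and Tlr6 turned, to -0.29 and -0.01745, without passing the test, where 3.96% of all genes were called, while within the 3-digit tags all 5 were called, where 52.0% of all genes were. Without the library of non-responder 29 these 5 were called as well, and so was Tlr1, at 0.11, which had 0.10 ± 0.04 (edgeR adjusted p = 0.054) with it and was called by DESeq2 too. On log2(TPM + 1), where the median of all genes moved by -0.16, the non-responder values of Tlr4, Tlr5, Tlr6 and Tlr8 lay below 0, at -0.06, -0.01, -0.16 and -0.11. From Day 9 to Day 24, 9 receptors fell and 1 rose in non-responders and 7 fell in responders, while 20.6% of all genes fell and 21.2% rose in non-responders and 10.9% fell and 8.06% rose in responders. Tlr8 fell in 30 of 30 non-responders and 15 of 15 responders, with fold changes of -0.93 ± 0.08 and -1.05 ± 0.15, and Tlr13 fell in the same numbers of mice. The receptor that rose was Tlr1, by 0.14 ± 0.04 (edgeR adjusted p = 0.0056) in 26 of 30 non-responders, and in responders its value was 0.14 ± 0.08 (edgeR adjusted p = 0.23). Tlr9 fell again in non-responders between Days 9 and 24, with -0.25 ± 0.05 (edgeR adjusted p = 8.5e-05), and had 0.10 ± 0.11 (edgeR adjusted p = 0.58) in responders.

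Set against each other per library, the mean of the 5 myeloid TLRs rose relative to the mean of Tlr7 and Tlr9 on Day 9. Log2 CPM is not scaled by transcript length, so that the shift between days can be read but not the gap itself. The mean of the myeloid TLRs minus that of Tlr7 and Tlr9 was at -2.87, -2.27 and -1.67 in non-responders on Day 4 and at -1.94, -1.37 and -0.82 on Day 9. Responders went from -2.83, -2.07 and -1.39 to -2.02, -1.32 and -0.78. The score rose in 29 of 29 non-responders, by 0.88 ± 0.41 (mean ± SD), and in 13 of 15 responders, by 0.68 ± 0.47. The mean of the myeloid TLRs moved by 0.94 and 0.64 in non-responders and responders, while the mean of Tlr7 and Tlr9, in which a rise and a fall offset each other, moved by 0.06 and -0.04. On Day 24 the score stood 0.55 ± 0.51 above Day 4 in non-responders, 25 of 29 mice being higher, and 0.06 ± 0.41 in responders, with 7 of 15 higher. These scores are descriptions and were not tested.

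**Figure D3:**
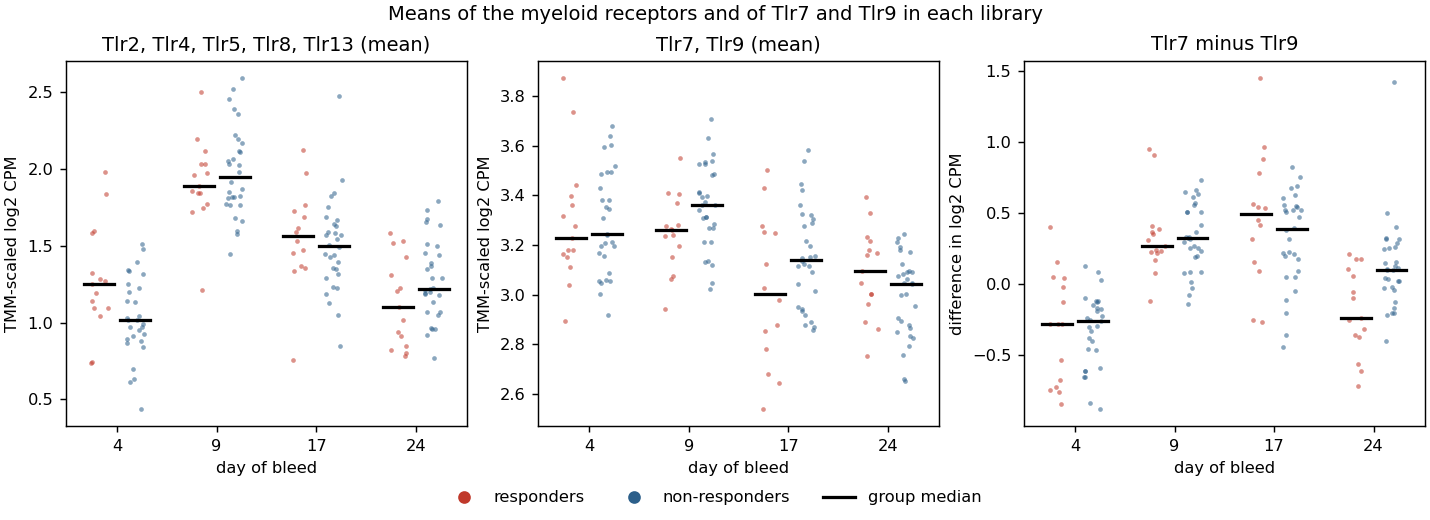
Mean of the 5 myeloid TLRs (left), mean of Tlr7 and Tlr9 (middle), both in TMM-scaled log2 CPM, and Tlr7 minus Tlr9 (right, difference in log2 CPM) in each library by day of bleed, for responders (red) and non-responders (blue), with black bars at the medians. Myeloid means peak on Day 9 in both groups, and the medians of Tlr7 minus Tlr9 are higher on Day 9 than on Day 4. Log2 CPM is not scaled by transcript length, so that 0 does not mark equal levels of Tlr7 and Tlr9.

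Compared within a day, responders had more Tlr2 on Day 4 and more Tlr9 on Day 24 than non-responders, and the shares of receptors called on these days were near those of all genes. Of the 10 receptors, 1 was called on Day 4, 1 on Day 24 and none on Days 9 and 17, where 7.42%, 8.55%, 13.4% and 1.99% of all genes were called, in that order. These shares moved with single libraries: without the Day 24 library of non-responder 29 that of Day 24 was 21.4%, and leaving out 1 responder at a time gave 4.57% (without responder 8) to 8.99% on Day 4, 4.8% to 11.6% on Day 24, 11.5% to 15.9% on Day 9 and 0.112% to 4.96% on Day 17. On Day 4, before treatment, Tlr2 was at 0.94, 1.52 and 2.03 log2 CPM in responders and 0.80, 1.20 and 1.83 in non-responders, overlapping ranges that differed by 0.31 ± 0.10 (edgeR adjusted p = 0.034). Within the 4-digit tags the difference was 0.36 and within the 3-digit tags 0.29, neither of which passed the test (edgeR adjusted p = 0.17 and 0.44), and no gene at all was called within either series. With the series as a covariate it was 0.35 (edgeR adjusted p = 0.036). The call was lost with no filter on low counts (edgeR adjusted p = 0.078), and the 1.24-fold difference was below a fold change of 1.5. It was also lost in 6 of 15 fits that left out 1 responder each (responders 2, 3, 5, 6, 8 and 10, edgeR adjusted p up to 0.086). On log2(TPM + 1), which counts haemoglobin in the scaling and moved the median of all genes by -0.27, the direction flipped, to -0.13, or 0.15 relative to that median. The values of the other myeloid TLRs on Day 4 lay on the same side without passing the test, Tlr5 by 0.44 ± 0.19 (edgeR adjusted p = 0.17), Tlr8 by 0.28 ± 0.13 (edgeR adjusted p = 0.21), Tlr13 by 0.26 ± 0.11 (edgeR adjusted p = 0.17) and Tlr4 by 0.17 ± 0.09 (edgeR adjusted p = 0.26). Beside this, 4 of 11 neutrophil, 2 of 12 monocyte and 5 of 8 red cell markers tested were higher in responders that day. The summed neutrophil markers ranged from 182 to 542 CPM in responders and from 132 to 349 in non-responders, and their part in the Tlr2 difference was not tested.

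Tlr9 was the receptor that differed on Day 24, at 2.67, 3.15 and 3.57 log2 CPM in responders and 1.94, 2.98 and 3.24 in non-responders, by 0.24 ± 0.07 (edgeR adjusted p = 0.028). Without the library of non-responder 29 the difference was 0.23 and was called as well. It was 0.28 within the 4-digit and 0.09 within the 3-digit tags, with edgeR adjusted p of 0.34 and 0.77, and 0.19 with the series as a covariate (edgeR adjusted p = 0.2), so that the call was not seen within the series, where no gene was called. With no filter on low counts it was not called (edgeR adjusted p = 0.064), and at 1.18-fold it was below a fold change of 1.5. Leaving out responder 1, 9, 10 or 13 also ended it (edgeR adjusted p up to 0.07). On log2(TPM + 1) the difference was 0.01. None of the 12 B cell markers was called on that day, and their median difference was 0.10, with Cd79a at 0.21 ± 0.08 and Ms4a1 at 0.18 ± 0.08. Without the library of non-responder 29, 2 of the 12, Cd79a (0.18) and Cd79b (0.16), were called higher in responders, beside 21.4% of all genes in either direction. The smallest edgeR adjusted p of Day 9 was 0.059 and that of Day 17 was 0.084, both for Tlr1, at -0.11 ± 0.04 and -0.18 ± 0.06. Tlr1 was called on Day 9 when responder 2 or 7 was left out and on Day 17 when responder 1 or 2 was left out. On Day 9, when the myeloid TLRs of both groups stood highest, the groups lay close, with Tlr4 at -0.12 ± 0.09, Tlr13 at -0.07 ± 0.09 and Tlr8 at 0.00 ± 0.10, and the 95% interval of the Tlr8 difference ran from -0.20 to 0.20. On log2(TPM + 1) the Day 9 count was 9 receptors, all lower in responders, beside 88.3% of all genes, where that scale moved the median of all genes by -0.26.

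Whether the receptors changed from Day 4 by different amounts in the groups was tested in 1 fit over all 178 libraries, in which the 3 days share their Day 4 libraries. No receptor passed on any day, beside 0%, 0.351% and 3.76% of 13688 genes on Days 9, 17 and 24. The share of Day 24 was 1.12% without the library of non-responder 29, 1.53% with the mouse as a block and 9.54% with the tag series and its interaction with the day as covariates, and no receptor passed in these fits. At an unadjusted p under 0.05 there were 3 receptors on Day 9, 0 on Day 17 and 6 on Day 24, beside 5.25%, 10.2% and 18.4% of all genes, and DESeq2 called none, beside 0%, 0.65% and 6.41% of all genes. On Day 24 the values of Tlr5 (-0.76 ± 0.26, edgeR adjusted p = 0.073), Tlr6 (-0.30 ± 0.12, 0.12), Tlr8 (-0.39 ± 0.16, 0.14), Tlr2 (-0.39 ± 0.16, 0.16) and Tlr13 (-0.32 ± 0.15, 0.21) lay below 0, a lower change in responders, and that of Tlr9 (0.23 ± 0.11, 0.22) above 0. With the tag series and its interaction as covariates, Tlr5 was at -0.33, Tlr6 at -0.11 and Tlr9 at 0.12. The 95% intervals on that day ran from -1.27 to -0.24 for Tlr5 and from -0.71 to -0.08 for Tlr8, so that equal changes in the groups are not shown. Markers lay on the same sides in this comparison, the neutrophil list at a median of -0.53 with S100a8 and S100a9 called lower of 12, the monocyte list at -0.25 with Ccr2 called lower of 12 and the B cell list at 0.17 with Pax5 called higher of 12, beside -0.01 over all genes (genes named after their values were seen). Without the library of non-responder 29 these medians were -0.51, -0.18 and 0.14 and no gene of the 3 lists was called, while Tlr5, Tlr8, Tlr2 and Tlr9 were at -0.75, -0.39, -0.38 and 0.22. The part of these cells in the receptor values was not tested.

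Markers of blood cells moved along with the receptors. On Day 9, 12 of 12 monocyte and 11 of 12 neutrophil markers rose in non-responders, with median fold changes of 0.57 and 0.99, and 6 of 12 in each list rose in responders. Of all genes, 23.3% were higher and 27.5% lower in non-responders that day, and 13.5% and 14.2% in responders. The summed monocyte markers ranged from 132 to 261 CPM on Day 4 and from 247 to 580 CPM on Day 9 in non-responders, and from 128 to 317.3 and from 241 to 540 in responders. The summed neutrophil markers had medians of 235 and 418 CPM on these days in non-responders and of 289 and 461 in responders. B cell markers fell, 12 of 12 in non-responders and 8 of 12 in responders, their sum ranging from 630 to 943 CPM on Day 4 and from 465 to 710 on Day 9 in non-responders and from 594 to 884 and from 453 to 627 in responders. No marker of these 3 lists was at 0 in most libraries. All 12 T cell markers fell in both groups. Of the other lists, 2 of 8 NK cell and 8 of 8 platelet markers fell in non-responders on Day 9, and 3 of 5 conventional dendritic cell and 2 of 8 red cell markers tested rose. The counts of the NK cell and red cell lists were near the shares of all genes. Plasmacytoid dendritic cell markers were split, 2 of 5 higher and 2 lower, and so were those of eosinophils and basophils, 2 of 6 higher and 2 lower. The part of cell numbers in the receptor changes was not tested.

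After Day 9 Tlr9 and the B cell markers took different courses in non-responders. From Day 9 to Day 24, 10 of 12 B cell markers rose in non-responders, where 21.2% of all genes did. Among these markers were Blk (0.24 ± 0.05) and Fcer2a (0.23 ± 0.06), whereas Tlr9 had -0.25 ± 0.05. On Day 24 the median B cell marker of non-responders was -0.13 from its Day 4 level, with 6 of 12 lower, among them Cd79a (-0.48 ± 0.07), beside 24.8% of all genes, and Tlr9 was at -0.53 ± 0.05. In responders 11 of 12 rose from Day 9 to Day 24, beside 8.06% of all genes, and the median marker was 0.01 from Day 4, beside -0.29 ± 0.11 for Tlr9. Tlr7 ended at -0.10 ± 0.07 and -0.15 ± 0.11 in non-responders and responders. The markers named here were chosen after their values were seen, and the difference between Tlr9 and the markers was not tested.

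**Figure D4:**
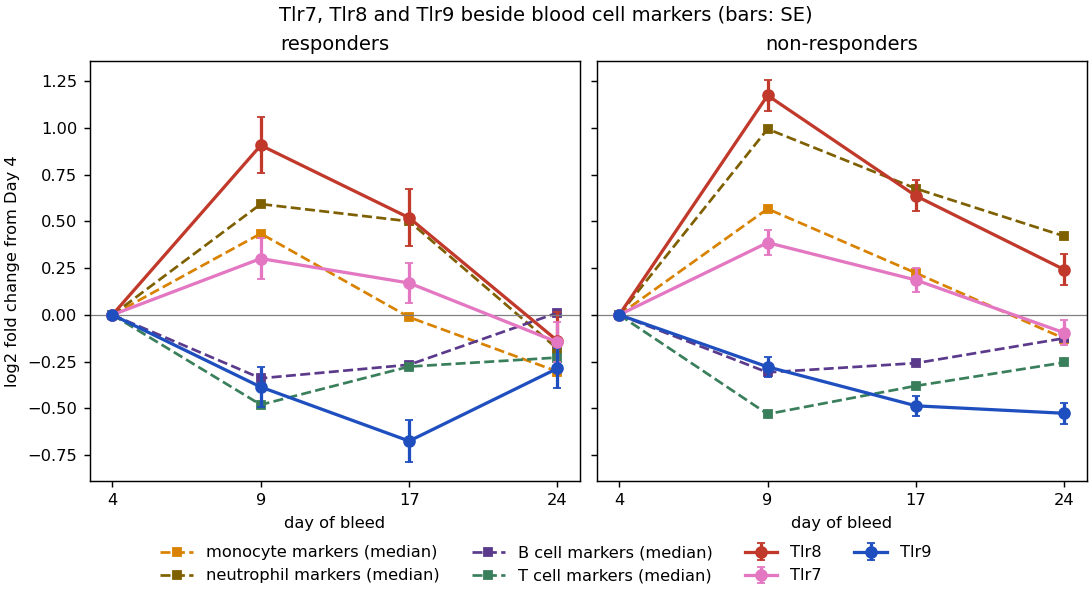
Log2 fold change from Day 4 (y axis) by day of bleed (x axis) in responders (left) and non-responders (right) for Tlr7, Tlr8 and Tlr9 (solid lines, bars for the standard error) and for the median gene of 4 lists of blood cell markers (dashed lines). Tlr8 and Tlr7 peak on Day 9 with the monocyte and neutrophil markers, and in non-responders Tlr9 is lower on Day 24 than on Day 9 while the B cell markers are higher.

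Across libraries, after the mean of each group and day was taken off, the receptors varied with different markers. These correlations are descriptions over 178 libraries that share mice and scaling, and each is followed by the value left when the 2 libraries farthest from the receptor's median were dropped. Tlr13 and Tlr8 went with the monocyte markers (Pearson's r = 0.75 and 0.70, and 0.73 and 0.69 without 2 libraries), and so did Tlr7 (0.66, then 0.65), whose r with the B cell markers was -0.08, then -0.03. With the neutrophil markers Tlr13 had 0.58, then 0.56, the highest r of the 10 receptors with that list, and Tlr8 had 0.37, then 0.34. Tlr5, Tlr6 and Tlr4 were closer to the neutrophil markers (0.52, 0.51 and 0.48, then 0.50, 0.50 and 0.42) than to the monocyte markers (0.39, 0.34 and 0.25, then 0.40, 0.40 and 0.31), and Tlr2 was near both (0.57 with monocyte and 0.51 with neutrophil markers, then 0.60 and 0.48). Tlr9 and Tlr1 were highest with the B cell markers (0.55 and 0.43, then 0.48 and 0.30). For Tlr1 the values with the platelet and red cell markers were negative and larger in size (-0.52 and -0.48, then -0.45 and -0.37). Among the receptors themselves the closest pair was Tlr8 and Tlr13 (0.70, then 0.69), Tlr7 was closer to Tlr13 (0.55, then 0.52) and Tlr8 (0.53, then 0.49) than to Tlr9 (0.24, then 0.27), and Tlr1 and Tlr6 had -0.01, then 0.03.

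**Figure D5:**
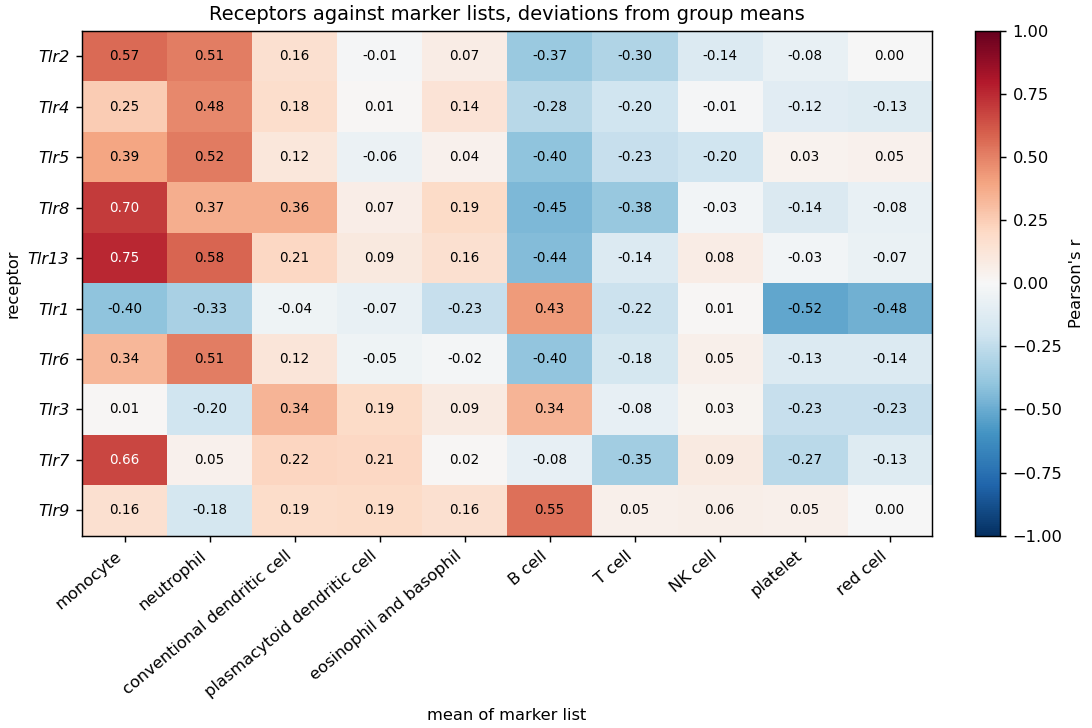
Pearson's r over 178 libraries between each receptor (rows) and the mean of each list of blood cell markers (columns), both as deviations from the means of the 8 groups, on a scale from blue (-1) to red (1). Tlr13, Tlr8 and Tlr7 are reddest under monocytes, and Tlr9 and Tlr1 under B cells.

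By the same measure the genes most like each receptor among the 13688 that passed the filter were named. For Tlr13 they were Fgr, Igsf6 and Emilin2 (r = 0.82 to 0.81), and for Tlr8 Sirpa, an inhibitory receptor of myeloid cells, Bach1 and Igsf6 (0.79 to 0.78). Tlr7 was most like Cybb, the catalytic subunit of the phagocyte oxidase, Clec4a3 and Ace (0.77 to 0.75). Among the genes nearest to Tlr9 were Plcg2, a phospholipase of B cell receptor signalling, and Pml (0.75 and 0.75). Tlr2 was most like App, Clec4e and Csf2rb (0.73 to 0.70), Tlr4 like Ppp1r3b, Ccr1 and Fosl2 (0.67 to 0.62), Tlr5 like Tnfaip2, Csf3r, the receptor of granulocyte colony-stimulating factor, and Hk3 (0.68 to 0.64) and Tlr6 like Sbno2, Pirb and Sema4a (0.73 to 0.71). Tlr1 was nearest to Rabep2, Cbx7 and Ddx17 (0.81 to 0.80). For Tlr3 the highest r, 0.48 with Smchd1, dropped to 0.32 without 2 libraries, so that it rests on those.

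Of 61 other genes of the TLR pathway, 57 could be tested in non-responders on Day 9, of which 31 rose and 9 fell, and in responders 14 rose and 3 fell of 56, with medians of 0.12 and 0.11. Of all genes, 23.3% rose and 27.5% fell in non-responders and 13.5% and 14.2% in responders, with medians of -0.01 and 0.01. Co-receptors and lipid carriers rose in 4 of 6 in non-responders and 1 of 6 in responders. Cd14, which hands lipopolysaccharide to Tlr4, rose by 3.34 ± 0.30 (edgeR adjusted p = 5.3e-18) and 2.17 ± 0.41 (edgeR adjusted p = 5.1e-05), and Ly96, the partner of Tlr4, by 0.64 ± 0.12 (edgeR adjusted p = 1.9e-06) in non-responders. Of 5 adaptors tested, 3 rose in both groups: Myd88 by 0.63 ± 0.06 (edgeR adjusted p = 6.3e-16) and 0.39 ± 0.09 (edgeR adjusted p = 0.0012), Ticam2 by 0.73 ± 0.07 and 0.60 ± 0.15 and Tirap by 0.47 ± 0.06 and 0.43 ± 0.10 in non-responders and responders, and 1 fell in non-responders. Chaperones and proteases of the endosomal receptors rose in 5 of 6 in non-responders, with Unc93b1, which carries them to the endosome, at 0.12 ± 0.04, and in none in responders.

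Of the roles, the target genes had the highest medians. All 9 cytokine and other targets tested rose in non-responders, with a median of 1.24, and 5 of 8 in responders, with 0.75. Il1b, an inflammatory cytokine, rose by 1.37 ± 0.13 (edgeR adjusted p = 3.9e-17) and 0.67 ± 0.19 (edgeR adjusted p = 0.0069), and Nfkbiz, an NF-kB cofactor, by 0.84 ± 0.09 and 0.90 ± 0.19. The cytosolic kinases and ubiquitin ligases had medians near 0, with 4 of 14 higher and 2 lower in non-responders and 2 higher in responders, and Irak4 at 0.25 ± 0.04 in non-responders. Transcription factors had 3 of 8 higher and 2 lower in non-responders, where Rela was at -0.18 ± 0.03 and Irf5 at 0.18 ± 0.05. Inhibitors were split, 3 of 9 higher and 4 lower in non-responders, with Dusp1 at 1.24 ± 0.12 and Tollip at -0.36 ± 0.08. Between responders and non-responders, 4 pathway genes were higher and 0 lower on Day 4 of 55 tested, with Irf7, an interferon regulatory factor, by 0.86 ± 0.23 (edgeR adjusted p = 0.011) and Cd36, a lipid scavenger receptor, by 0.78 ± 0.19 (edgeR adjusted p = 0.0058), and 6 and 4 of 57 on Day 9, beside 7.42% and 13.4% of all genes called in either direction on these days. On Day 24 the change of Il1b from Day 4 differed between the groups by -0.92 ± 0.23 (edgeR adjusted p = 0.018), lower in responders, and by -0.90 (edgeR adjusted p = 0.029) without the library of non-responder 29. Il1b was also among the genes higher in responders on Day 4, by 0.51 ± 0.16 (edgeR adjusted p = 0.045), so that its change in responders started from a higher level.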

How the data were processed

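The deposited table of estimated counts per gene and the deposited TPM table were used, for 178 blood libraries of 45 mice. Per the labels and the study's methods, the authors isolated RNA from blood, made polyadenylated RNA libraries, aligned reads to mm10 with STAR (processing notes) and deposited estimated (expected) counts, of which 3.14% were not whole, and TPM, which divides by length and by a total that includes haemoglobin. Here counts were rounded, genes were filtered by edgeR's filterByExpr and scaled by TMM, and quasi-likelihood tests were run in edgeR 4.0.16 (R 4.3.3) with Benjamini-Hochberg adjustment over all genes tested and a threshold of 0.05. Each day was fitted alone for responders against non-responders, each group over its 4 days for the changes, and all libraries for the difference of changes. Levels are log2 CPM with a prior count of 2. Limma 3.58.1 on log2(TPM + 1), a Wilcoxon rank-sum test on TPM and DESeq2 1.42.0 were alternatives.

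The 10 receptors and the lists of markers and pathway genes were chosen with earlier results of these data known. All 10 receptors are named, with up to 3 called pathway genes of lowest p per role and the 3 genes of highest r per receptor, of which 1 is not reported here. All 55450 gene IDs matched GENCODE M21 (GRCm38, the build of mm10), which gave positions and transcripts, and promoter windows are RefSeq's. Replicates are separate mice, and the same ear tag was taken to mark the same mouse on each day. Deviations of a mouse from its group means correlated between days by -0.05 to 0.10 on average. Of the 43 to 45 mice per pair of days, 1 to 6 were most like themselves. The pairing is thus little seen in the expression values, and the counts of mice that rose or fell rest on the tags. Tests were checked on simulated counts with 200 changed genes: of genes changed 1.5-fold, 83.6% were recovered for responders against non-responders on Day 9, 68.7% for Day 9 against Day 4 in responders and 95.5% in non-responders, and of genes changed 1.2-fold 50.7%, 22.4% and 58.2%, in that order. The reported fits called more genes than the simulation changed, and those of the days held all 4 days, not Days 4 and 9 alone. These rates therefore need not be those of the reported tests. Ddx3y as a covariate, planned as a stand-in for sex, could not be fitted because Ddx3y had 0 counts in all 178 libraries. Xist, the transcript that marks female cells, had at least 313 counts in each library. All libraries thus had the pattern of female mice at both genes, although the study's methods report mice of both sexes.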

Additional observations from a re-analysis of the deposited data

How the results depend on the processing

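The alternatives on TPM change the test together with the scale, so that the parts of the 2 cannot be told apart. TPM divides by a total that is mostly haemoglobin, and counts of Tlr3 and Tlr5 are low, which limits what can be seen of them. Counts of receptors called are compared here. With limma on log2(TPM + 1), 6 receptors were called on Day 4, 9 on Day 9 and 0 on Day 24 between the groups, in place of 1, 0 and 1, while that fit called 83.8%, 88.3% and 0% of all genes. In responders 0 were called on Day 9, 0 on Day 17 and 0 from Day 9 to Day 24, in place of 8, 4 and 7, in non-responders 5 on Day 9 and 3 on Day 17, in place of 9 and 8, and 1 (Tlr9) in the difference of the Day 24 changes, beside 1.7%, 0.207%, 0.414%, 20.3%, 62.3% and 9.69% of all genes, in that order. The Wilcoxon rank-sum test on TPM called 5, 9 and 0 on Days 4, 9 and 24, beside 41.4%, 47.6% and 0% of all genes. Among receptors called on either scale, directions turned in the limma fit on log2(TPM + 1) on Day 4, where the median of all genes was -0.27, for Tlr2 (-0.13), Tlr4 (-0.12), Tlr6 (-0.21), Tlr7 (-0.41) and Tlr9 (-0.47), and in the Wilcoxon test for Tlr2 (-0.13), Tlr7 (-0.41), Tlr8 (-0.16) and Tlr9 (-0.47), where that median was -0.04. Tlr5 (-0.02), Tlr8 (-0.16) and Tlr13 (-0.27), called by neither edgeR nor limma, lay below 0 in the limma fit too. In non-responders directions turned in the limma fit for Tlr3 on Day 9 (-0.003618), for Tlr1 (-0.26), Tlr2 (-0.02867), Tlr5 (-0.005254), Tlr6 (-0.01886), Tlr7 (-0.12) and Tlr13 (-0.002532) on Day 17, for Tlr4 (-0.0601), Tlr5 (-0.01307), Tlr6 (-0.16) and Tlr8 (-0.11) on Day 24, and for Tlr1 (-0.15) from Day 9 to Day 24.

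Within the 4-digit ear tags, 0 receptors were called on Days 4 and 24 between the groups, 5 on Day 9 in responders, and 5 on Day 17, 1 on Day 24 and 5 from Day 9 to Day 24 in non-responders, where Tlr5 (-0.29) and Tlr6 (-0.01745) turned on Day 24. Of all genes, 0%, 0%, 17.3%, 12.7%, 3.96% and 9.36% were called there. Within the 3-digit tags, 0 were called on Days 4 and 24 between the groups and 1 on Day 9, 0 on Day 17 and 0 from Day 9 to Day 24 in responders, beside 0%, 0%, 6.94%, 0% and 0.923% of all genes, so that a count of 0 where no gene was called says nothing of the receptors. These subsets hold fewer mice. With the tag series as a covariate, 0 were called on Day 24 (0.978% of all genes). With no filter on low counts, 0 were called on Day 4, 1 on Day 9 and 0 on Day 24 (3.43%, 6.63% and 2.27% of all genes). With a fold change of at least 1.5 required as well, 0 remained on Day 4 and 0 on Day 24, 2 on Day 9, 1 on Day 17 and 4 from Day 9 to Day 24 in responders, and 1 on Day 17, 0 on Day 24 and 4 from Day 9 to Day 24 in non-responders, where 0.297% to 8.54% of all genes passed. DESeq2 called 1 (Tlr9) on Day 24 in responders, and on that day in non-responders also Tlr1 (0.11), as did edgeR with haemoglobin genes removed (0.11) and within the 3-digit tags (0.14), where DESeq2 called 19.3% and 48.9% of all genes. Leaving out 1 responder at a time gave 0 to 1 receptors called on each of the 4 days. With the mouse as a replicate block, 8, 5, 1 and 7 receptors were called in responders and 9, 8, 5 and 10 in non-responders (Days 9, 17 and 24 against Day 4, then Day 24 against Day 9), beside 30.7%, 27.2%, 19.8% and 20.5% and 51.7%, 47.3%, 49.2% and 39.5% of all genes, and the pairing changed no call but those of Tlr13 and Tlr9 given above. Leaving out the Day 4 libraries of responders 2 and 8, chosen after seeing the data for their low scaling factors, gave 8, 4, 0 and 7, beside 26%, 20.5%, 7.76% and 20.8% of all genes. Of 1850 values of single receptors under an alternative, 1674 stayed on their side of the threshold, of which 138 changed sign without passing in either setting, 115 no longer passed, 38 newly passed and 23 that passed in at least 1 of the settings turned. The causes were not tested.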

Other observations

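After Day 9 more of the other TLR pathway genes fell than rose. From Day 9 to Day 24, 29 of 57 pathway genes tested fell and 8 rose in non-responders, and 16 of 56 fell and 1 rose in responders, with medians of -0.13 and -0.08 beside 0.03 and 0.00 over all genes. Of all genes, 20.6% fell and 21.2% rose in non-responders and 10.9% fell and 8.06% rose in responders. On Day 24 against Day 4, 16 were higher and 15 lower in non-responders. Among the higher, Il1b was at 0.75 ± 0.13 (edgeR adjusted p = 9.0e-07) and the scavenger receptor Cd36 at 0.99 ± 0.19 (edgeR adjusted p = 6.5e-06), which became 0.52 when the Day 24 library of non-responder 29 was left out. Among the lower, Tnip1, an inhibitor of NF-kB signalling, was at -0.23 ± 0.03 (edgeR adjusted p = 7.9e-11) and Nfkb2, an NF-kB subunit, at -0.22 ± 0.04 (edgeR adjusted p = 1.3e-06). Of all genes, 23.8% were higher and 24.8% lower. In responders 7 pathway genes were higher and 3 lower, where 17.4% of all genes were called in either direction. Ctsb, a lysosomal protease, was higher in responders than in non-responders on Day 4, by 0.92 ± 0.21 (edgeR adjusted p = 0.0033), and its change to Day 24 differed between the groups by -1.03 ± 0.30 (edgeR adjusted p = 0.032), while 5 of 8 red cell markers were higher in responders on Day 4 and 6 of 8 had a lower change to Day 24. Without the Day 24 library of non-responder 29, the highest of its group in summed red cell markers (10691400 TMM-scaled CPM, which its low scaling factor raises, beside a median of 799073), the Ctsb difference of the changes was -0.52 (edgeR adjusted p = 0.22) and 0 of 8 red cell markers were called, with a median of -0.66 in place of -1.25. The part of red cell RNA in the Ctsb values was not tested.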
